A study of Mus musculus with 43 samples.

Results

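Interferon alpha changed the transcriptomes of myeloid cells and lymphocytes of the mouse to different extents within 2 h of its injection, and the genes on which the lineages differed are described here. The myeloid lineage comprised dendritic cells, macrophages and neutrophils, and the lymphocytes were T cells of the CD4+, CD8+, regulatory and gamma-delta kinds together with NK and NKT cells. For each gene the interferon effect in a cell type was its mean log2 level on the interferon arrays minus that on the baseline arrays. The unweighted mean of this effect over the 3 myeloid types minus that over the 6 lymphocyte types is called the difference below, so a positive difference means a larger rise, or a smaller fall, in the myeloid types. All 43 of the 43 arrays of the series entered it, namely 5 myeloid interferon arrays, 8 myeloid baseline arrays, 12 lymphocyte interferon arrays and 18 lymphocyte baseline arrays.

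RNA of sorted cells was measured on microarrays of the Affymetrix type Mouse Gene 1.0 ST. Interferon arrays held cells taken 2 h after 10000 U of interferon alpha were injected under the skin of C57BL/6 males 6 weeks old. Baseline arrays, labelled SPF, held cells of C57BL/6 males of that age for which no injection, and no vehicle, is labelled. Per the labels the gates were CD11c+ Flt3+ for dendritic cells (2 interferon and 3 baseline arrays), F4/80+ for macrophages (1 and 3 arrays) and Ly6G+ for neutrophils (2 and 2 arrays). They were CD4+ for CD4+ T cells, CD8+ for CD8+ T cells, CD4+ CD25+ for regulatory T cells, TCRgd+ for gamma-delta T cells, NK1.1+ for NK cells and NK1.1+ TCRb+ for NKT cells, with 2 interferon and 3 baseline arrays each, although baseline arrays 1 and 2 of NKT cells name NK1.1+ alone. Macrophages came from the peritoneal cavity and all other types from the spleen, so tissue and cell type cannot be told apart for macrophages. For baseline arrays 1 and 2 of CD8+ T cells the labelled source is blood, and the preparation text of macrophage baseline arrays 1 and 2 names the spleen.

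The labelled cell types carried their own markers, and some lymphocyte arrays carried markers of other types as well. The median log2 level of 9 macrophage markers was 11.93 on the macrophage interferon array and between 12.07 and 12.20 on the macrophage baseline arrays. It was 10.27 on NKT cell interferon array 1, above the 9.87 of the T cell markers there. The median of 10 neutrophil markers lay between 12.69 and 13.05 on the neutrophil arrays, against at most 6.12 on any lymphocyte array. The median of 8 T cell markers lay between 9.70 and 11.42 on the arrays of the 4 T cell types and NKT cells, against at most 7.23 on any myeloid array. On gamma-delta T cell baseline array 3 it was 10.34, below the 10.69 of 9 B cell markers. Of the 43 arrays, 41 were most like another array of their own cell type, and array medians lay between 105 and 125 on the linear scale. The macrophage effect rests on 1 interferon array, whose spread was taken from the other groups. The wording of the preparation text differed between baseline arrays 1 and 2 and most later arrays, so it moves with treatment in part. With a term for it, 102 of the 108 and all 45 genes called below stayed called. Neutrophils have only baseline arrays 1 and 2, so the term cannot compare wordings among their baseline arrays. The labels do not say whether arrays of a group came from separate animals, so p-values measure the spread between these arrays.

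Type I interferons bind a receptor that nearly all cells carry. Its kinases JAK1 and TYK2 phosphorylate STAT proteins, and the complexes these form bind interferon-stimulated response elements or gamma-activated sites in front of antiviral genes. Dendritic cells and macrophages take up and present antigen and neutrophils engulf microbes, while T cells and NK cells kill infected cells or release cytokines, and interferon acts on each of these activities.

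The difference was called higher in the myeloid types for 108 of 19752 genes (0.547%) and lower for 45 (0.228%), a gene being called at a Benjamini-Hochberg adjusted p below 0.05 and a difference of at least 1 on the log2 scale (limma). As background, the myeloid mean effect was called raised for 370 genes (1.87%) and lowered for 78 (0.395%), and the lymphocyte mean effect was called raised for 227 (1.15%) and lowered for 14 (0.0709%). Of the 108 genes with a higher difference, 69 were raised in the myeloid mean and not called in the lymphocyte mean, 21 were raised in both, and 18 were called in neither. Of the 45 genes with a lower difference, 14 were raised in the lymphocyte mean alone, 15 were lowered in the myeloid mean alone, 4 were raised in both and 12 were called in neither. The effects of all 3 myeloid types lay above those of all 6 lymphocyte types for 407 genes (2.06%), of which 62 were called (0.314% of all genes), and below them for 259 genes (1.31%), of which 26 were called (0.132%).

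**Figure D1:**
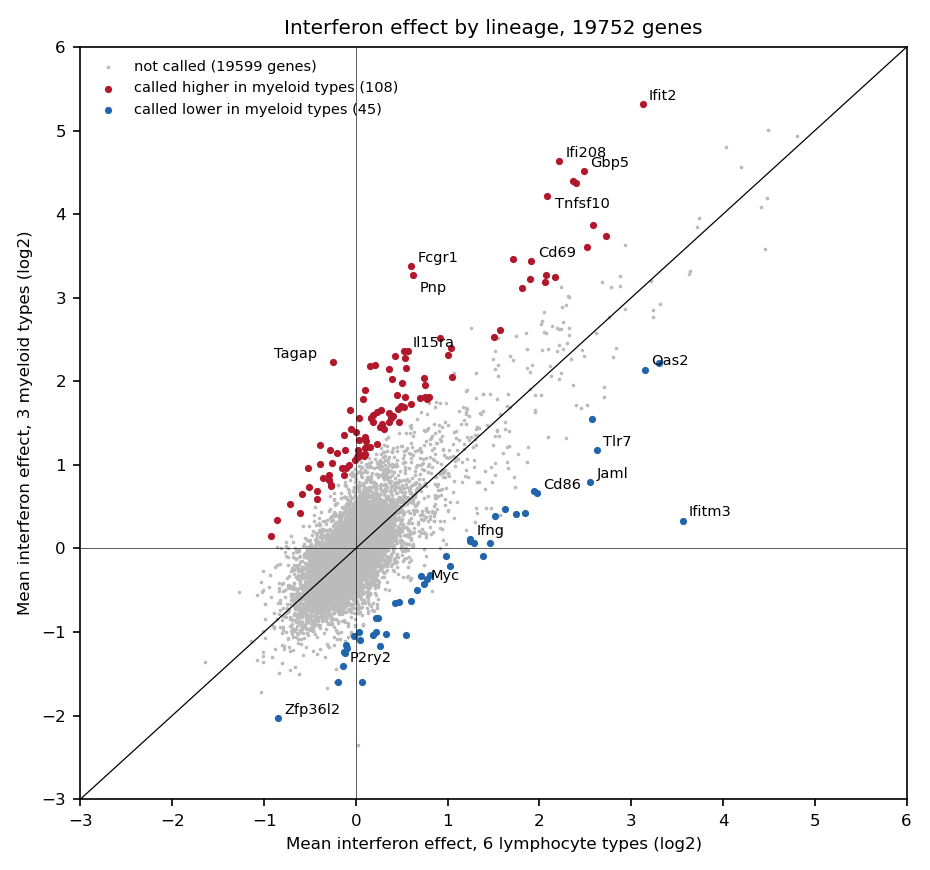
Mean interferon effect (log2) in the 3 myeloid types on the vertical axis against that in the 6 lymphocyte types on the horizontal axis, with 1 point per gene for 19752 genes. The 108 genes called higher in the myeloid types lie above the line of equal effects, with Ifit2 at the top right, and the 45 called lower lie below it, with Ifitm3 farthest to the right.

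The plot of the effects by lineage also shows strongly raised genes close to the line of equal effects. Of the 370 genes raised in the myeloid mean, 90 were called higher. Over all 19752 genes the median difference was 0.007. Rsad2, which encodes the antiviral protein viperin, had effects of 4.19 in the myeloid types and 4.48 in the lymphocytes, and Cxcl10, which encodes a chemokine for T cells, had effects of 5.01 and 4.49 in the same order. Neither difference was called (adjusted p = 0.73 and 0.36).

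Each myeloid type was also set against the lymphocytes by itself. Against the same lymphocyte mean, 259 genes were called higher (1.31%) and 293 lower (1.48%) in neutrophils, 219 higher (1.11%) and 78 lower (0.395%) in dendritic cells, and 81 higher (0.41%) and 33 lower (0.167%) in macrophages. These comparisons share the lymphocyte arrays, and the macrophage one has 1 interferon array. With 1 array left out at a time, the neutrophil counts ran from 159 to 289 higher and from 135 (without neutrophil interferon array 1) to 498 (without array 2) lower, and the dendritic cell counts from 138 (without dendritic cell interferon array 2) to 233 higher and from 37 (without the same array) to 90 lower. Among the 108 genes called higher in the mean, 18 were called in all 3 myeloid types, 41 in 2, 48 in 1 and 1 in none. Neutrophils had the largest effect of the 3 types for 59 of the 108, dendritic cells for 27 and macrophages for 22. Among the 45 genes called lower, 1 was called in all 3 types, 16 in 2, 27 in 1 and 1 in none, and of the 27 called in 1 type 24 were called in neutrophils.

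With the 9 cell types as the units of spread, 3 against 6, 23 of the 108 and 10 of the 45 genes remained called. Against baseline replicate 3 alone, for which neutrophils have no array, 46 of the 108 and 8 of the 45 remained.

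Fcgr1 had the largest positive difference. It encodes the high-affinity receptor for IgG, known as CD64, with which phagocytes bind antibody-coated particles. Log2 levels were 9.62 and 10.25 on the dendritic cell interferon arrays, 11.01 on the macrophage interferon array and 9.98 and 10.69 on the neutrophil interferon arrays, against a lowest of 6.14, a median of 6.74 and a highest of 8.74 on the 8 myeloid baseline arrays. The lymphocyte level was 5.96 at the lowest, 6.38 at the median and 10.07 at the highest after interferon, against 5.75, 6.19 and 7.18 at baseline. The myeloid interferon arrays all lay above the myeloid baseline arrays, whereas the lymphocyte groups overlapped, and the lymphocyte values above 8 were those of the 2 NKT cell interferon arrays. The myeloid mean effect was 3.38, a 10.4-fold rise, against 0.60 in the lymphocytes, and the difference was 2.77 (SE 0.237, adjusted p = 6.42e-10). The 9 macrophage markers had medians of 10.27 and 9.05 on NKT cell interferon arrays and of 9.47, 7.89 and 8.76 on NKT cell baseline arrays, and their summed intensity ran from 5192 to 10021 after interferon and from 2315 to 7850 at baseline. NKT cells had an Fcgr1 effect of 2.38, and the part of these markers in it was not tested. Without NKT cells all 108 genes called higher and 39 of the 45 called lower stayed called.

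Pnp, which encodes the purine nucleoside phosphorylase of purine salvage, followed a similar course. The log2 level stood at 10.56 and 10.81 on the dendritic cell interferon arrays, 10.58 on the macrophage interferon array and 11.11 and 11.24 on the neutrophil interferon arrays, against a lowest of 7.04, a median of 7.43 and a highest of 8.55 on the 8 myeloid baseline arrays. In the lymphocytes it was 7.11 at the lowest, 7.61 at the median and 9.12 at the highest after interferon, against 6.60, 6.99 and 7.70 at baseline. Every myeloid interferon array lay above every myeloid baseline array, and the lymphocyte groups overlapped. The mean effects were 3.27 in the myeloid types and 0.63 in the lymphocytes, and the difference was 2.64 (SE 0.226, adjusted p = 6.42e-10). Nt5c3, which encodes a nucleotidase of pyrimidine breakdown, rose in both lineages, by 3.46 in the myeloid types and 1.71 in the lymphocytes (difference 1.75, SE 0.218, adjusted p = 1.6e-06).

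Tagap encodes a GTPase-activating protein first described in activated T cells. Its log2 level was 11.88 and 12.20 on the dendritic cell interferon arrays, 10.74 on the macrophage interferon array and 12.57 and 12.97 on the neutrophil interferon arrays, against a lowest of 8.45, a median of 9.27 and a highest of 10.90 on the 8 myeloid baseline arrays. Lymphocyte arrays had 9.96 at the lowest, 10.53 at the median and 11.09 at the highest after interferon, against 10.17, 10.84 and 11.19 at baseline. Within each myeloid type every interferon array lay above every baseline array, although the types sit at different levels and overlap when pooled, while the lymphocyte interferon arrays overlapped the baseline arrays. At baseline Tagap was lower in the myeloid types by a mean of -1.20, and after interferon it was higher in them by 1.28. The effects were 3.54 in neutrophils, 1.88 in macrophages and 1.27 in dendritic cells, against a lymphocyte mean of -0.25, and the difference was 2.48 (SE 0.156, adjusted p = 9.91e-13).

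**Figure D2:**
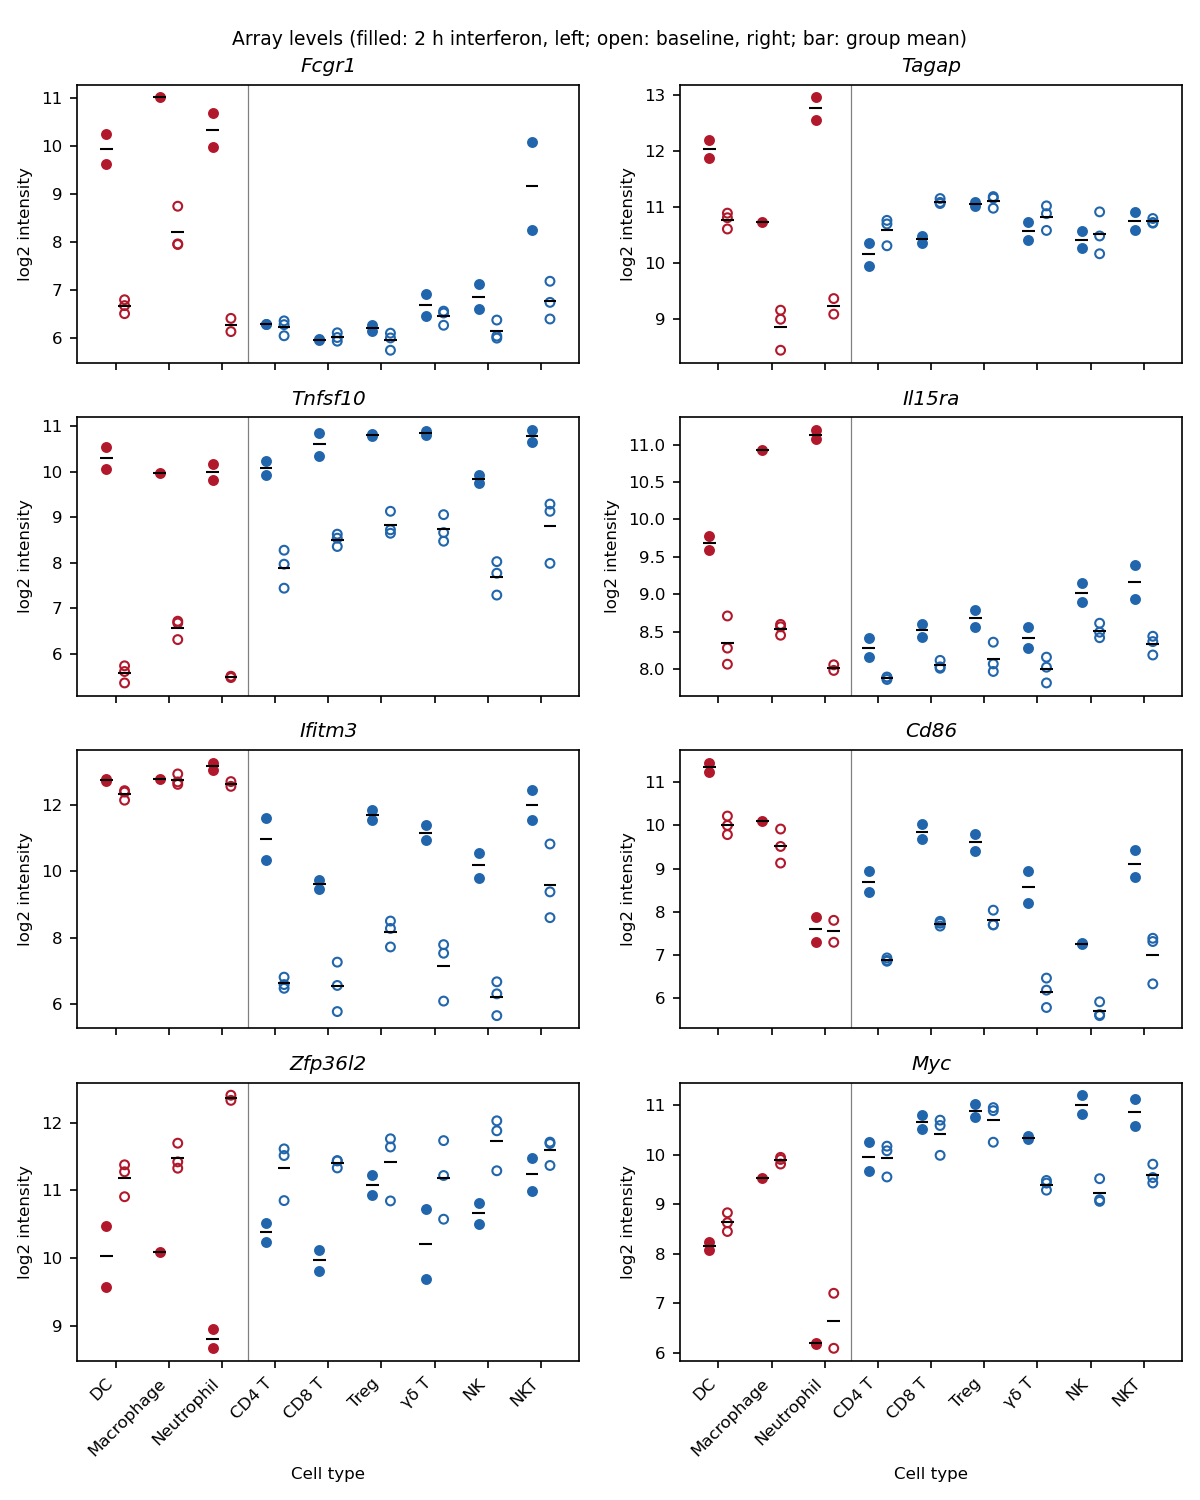
Log2 intensity of 8 genes on each array, by cell type, with the 3 myeloid types left of the grey line and the 6 lymphocyte types right of it. Filled points are interferon arrays and open points to their right are baseline arrays, and bars are group means. Fcgr1, Tagap, Tnfsf10 and Il15ra separate by treatment within every myeloid type, whereas Ifitm3 stands at or above 12.15 on all myeloid arrays and separates by treatment in the lymphocytes.

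The plot of array levels shows these genes and 4 with a negative difference. Tnfsf10 encodes TRAIL, a death ligand of the TNF family. Log2 levels were 10.05 and 10.54 on the dendritic cell interferon arrays, 9.97 on the macrophage interferon array and 9.82 and 10.18 on the neutrophil interferon arrays, against a lowest of 5.35, a median of 5.67 and a highest of 6.71 on the 8 myeloid baseline arrays. Across the lymphocyte types it was 9.75 at the lowest, 10.71 at the median and 10.92 at the highest after interferon, against 7.29, 8.50 and 9.29 at baseline. In both lineages every interferon array lay above every baseline array. Relative to the lymphocytes the myeloid level was -2.54 at baseline and -0.40 after interferon. The rise was 18.6-fold in the myeloid types and 4.24-fold in the lymphocytes, and the difference was 2.14 (SE 0.209, adjusted p = 1.63e-08). The macrophage contrast alone was 1.32 with an adjusted p of 0.1.

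Il15ra and Il15 encode the receptor chain and the cytokine that myeloid cells present together to NK cells and memory CD8+ T cells. The log2 level of Il15ra was 9.60 and 9.78 on the dendritic cell interferon arrays, 10.93 on the macrophage interferon array and 11.07 and 11.20 on the neutrophil interferon arrays, against a lowest of 7.99, a median of 8.37 and a highest of 8.71 on the 8 myeloid baseline arrays. On lymphocyte arrays it was 8.16 at the lowest, 8.59 at the median and 9.40 at the highest after interferon, against 7.82, 8.10 and 8.62 at baseline. Myeloid interferon arrays all lay above myeloid baseline arrays. The effects were 3.11 in neutrophils, 2.39 in macrophages and 1.34 in dendritic cells, against a lymphocyte mean of 0.53, and the difference was 1.75 (SE 0.126, adjusted p = 1.71e-11). The difference of Il15 was 1.36 (SE 0.233, adjusted p = 0.000265), with effects of 2.65 in macrophages, 2.84 in dendritic cells and 1.69 in neutrophils. NK and NKT cells had Il15 effects of 2.03 and 2.70 of their own, and the other 4 lymphocyte types had effects from -0.03 to 0.72.

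Among the cytokines, 3 of 23 measured genes were called higher (Il15, Il18 and Il6) and 1 lower (Ifng), against 0.547% and 0.228% of all genes. The median difference of the list was 0.054, against 0.007 for all genes. Il18, which encodes a cytokine matured by inflammasomes, had log2 levels of 8.80 and 8.86 on the dendritic cell interferon arrays, 9.72 on the macrophage interferon array and 9.49 and 9.84 on the neutrophil interferon arrays, against a lowest of 6.22, a median of 7.46 and a highest of 7.95 on the 8 myeloid baseline arrays. The lymphocyte level was 4.66 at the lowest, 5.51 at the median and 8.61 at the highest after interferon, against 4.41, 5.06 and 6.50 at baseline. Its effects were 3.45 in neutrophils, 2.57 in macrophages and 1.06 in dendritic cells, and the difference was 1.79 (SE 0.287, adjusted p = 0.000107). The lymphocyte mean effect of Il18 was 0.57, from 0.02 in CD8+ T cells to 1.47 in NKT cells. Its dendritic cell contrast, 0.49, was not called. Il6, an inflammatory cytokine gene, rose in macrophages by 2.37 and in dendritic cells by 1.99, while its neutrophil effect was 0.17, and without macrophages the call was lost. Its log2 level was low, with a median of 3.72 on myeloid baseline arrays and 5.53 on myeloid interferon arrays. It counted as dim, not reaching 7 on 2 arrays, and was absent from the alternative without dim genes. The remaining 19 genes of the list, Tnf and Il1b among them, were not called.

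Acod1 encodes the enzyme that makes itaconate from an intermediate of the citric acid cycle. The log2 level stood at 8.10 and 7.24 on the dendritic cell interferon arrays, 8.18 on the macrophage interferon array and 12.75 and 13.16 on the neutrophil interferon arrays, against a lowest of 6.30, a median of 6.79 and a highest of 9.29 on the 8 myeloid baseline arrays. In the lymphocytes it was 6.19 at the lowest, 6.66 at the median and 7.30 at the highest after interferon, against 6.11, 6.48 and 6.94 at baseline. Interferon arrays lay above baseline arrays within each myeloid type, by 4.02 in neutrophils, 1.29 in dendritic cells and 1.26 in macrophages. The lymphocyte mean effect was 0.21, and the difference was 1.98 (SE 0.168, adjusted p = 6.31e-10). Gch1, which encodes the first enzyme of tetrahydrobiopterin synthesis, a cofactor of nitric oxide synthases, had similar effects in the 3 types, of 2.19 in macrophages, 1.84 in dendritic cells and 1.83 in neutrophils (difference 1.20, SE 0.158, adjusted p = 4.37e-06). These were the 2 called higher of 8 measured genes of itaconate, arginine and nitric oxide metabolism, against 0.547% of all genes. Nos2 itself had a difference of 0.12 (adjusted p = 0.87) and Arg1 one of 0.10 (adjusted p = 0.96).

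The interferon-inducible GTPases, which attack the vacuoles and membranes of intracellular microbes, had 5 of 9 measured members called higher and 0 lower, against 0.547% and 0.228% of all genes. Their median difference was 1.079, and 6 of the 9 had an adjusted p below 0.05 in either direction (limma). In neutrophils alone 5 were called higher and 2 lower (1.31% and 1.48% of all genes). In dendritic cells 3 were higher and 1 lower (1.11% and 0.395%), and in macrophages 2 and 0 (0.41% and 0.167%). All 9 rose in the mean of each lineage. Gbp5 had log2 levels of 10.93 and 11.58 on the dendritic cell interferon arrays, 10.83 on the macrophage interferon array and 12.70 and 12.71 on the neutrophil interferon arrays, against a lowest of 6.42, a median of 7.15 and a highest of 7.97 on the 8 myeloid baseline arrays. Lymphocyte arrays had 9.78 at the lowest, 10.52 at the median and 10.93 at the highest after interferon, against 6.90, 7.91 and 9.17 at baseline. Interferon arrays lay above all baseline arrays in both lineages, and neutrophils stood apart with an effect of 6.13, against 3.71 in dendritic cells and 3.71 in macrophages, so that the difference was 2.04 (SE 0.204, adjusted p = 2.24e-08). Gbp4 had a difference of 1.33 (SE 0.208, adjusted p = 7.54e-05), Gbp3 of 1.21 (SE 0.168, adjusted p = 1.31e-05), Gbp7 of 1.09 (SE 0.226, adjusted p = 0.00274) and Irgm1 of 1.08 (SE 0.21, adjusted p = 0.00128). Gbp11 went the other way at -0.97 and was below the minimum for a call (adjusted p = 0.00052), and Iigp1, Gbp8 and Gbp9 were not called at -0.35, -0.17 and 0.12. Without neutrophils Gbp3 and Gbp7 lost their calls, Gbp7 also without dendritic cells, and without macrophages Irgm1 did. In macrophages Gbp3 rose by 1.41, less than the lymphocyte mean of 2.07.

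Several genes of the PYHIN family, which bind DNA and reside in a cluster on chromosome 1, were called higher. Others of the family were not called, namely Aim2 at 0.16, Ifi214 at 0.38, Ifi202b at -0.15 and Ifi207 at -0.08. Ifi208 had log2 levels of 10.25 and 10.42 on the dendritic cell interferon arrays, 9.47 on the macrophage interferon array and 10.80 and 10.46 on the neutrophil interferon arrays, against a lowest of 4.77, a median of 5.38 and a highest of 6.17 on the 8 myeloid baseline arrays. Across the lymphocyte types it was 11.57 at the lowest, 11.80 at the median and 11.96 at the highest after interferon, against 7.83, 9.72 and 10.56 at baseline. Interferon arrays lay above baseline arrays in both lineages, but even after interferon every myeloid array stayed below every lymphocyte interferon array. Its myeloid rise was 24.8-fold and its lymphocyte rise 4.64-fold, and the difference was 2.42 (SE 0.246, adjusted p = 2.87e-08). Ifi213 started lower in the myeloid types as well, by a mean of -3.01, and had a difference of 1.97 (SE 0.209, adjusted p = 5.71e-08). Ifi205 was the reverse in level, at 3.18 higher in the myeloid types at baseline, with effects of 5.91 in neutrophils, 5.55 in macrophages and 1.72 in dendritic cells, and 5.84 in NKT cells (difference 2.02, SE 0.318, adjusted p = 8.28e-05). The difference of Ifi205 was 0.924 and not called against baseline replicate 3 alone, and its dendritic cell contrast was -0.65. The part of the macrophage markers on NKT cell arrays, given for Fcgr1, in its NKT cell effect was not tested. Ifi209 and Ifi203 differed by 1.12 (SE 0.274, adjusted p = 0.0123) and 1.04 (SE 0.275, adjusted p = 0.0239). Without neutrophils Ifi205, Ifi209 and Ifi203 were not called, nor was Ifi209 without macrophages, and the dendritic cell contrast of Ifi209 was -0.22. These genes are close relatives, and how far their probe sets share RNA was not tested.

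The wider list of RNA and DNA sensors and adaptors had 4 of 16 measured members called higher and 0 lower, against 0.547% and 0.228% of all genes. The 4 were Ifi205, Ifi209, Ifi203 and Cgas, and 6 of the 16 had an adjusted p below 0.05 (limma). Cgas, which encodes the sensor of cytosolic DNA, had a difference of 1.00 (SE 0.174, adjusted p = 0.000313). Its effects were 2.83 in neutrophils, 1.96 in macrophages and 1.35 in dendritic cells. Cgas was raised in the lymphocyte mean too, by 1.04, with effects from 0.29 in CD4+ T cells to 1.44 in NK and 2.02 in NKT cells. The dendritic cell contrast was 0.30 and not called. The Cgas call ended when any 1 of 20 arrays was left out, without neutrophils, and with the term for preparation wording (0.986). Trex1, a DNase that removes cytosolic DNA, had effects of 2.68 in neutrophils, 1.23 in macrophages and 0.96 in dendritic cells, against 0.37 in the lymphocytes (difference 1.26, SE 0.153, adjusted p = 1.07e-06), and it was not called without neutrophils. Of the RNA sensor genes, Ddx58 had a difference of 0.80 (adjusted p = 0.038) and stayed under the minimum for a call, and Ifih1 and Dhx58 had differences of -0.40 (adjusted p = 0.55) and -0.43 (adjusted p = 0.27), with effects of 2.92 and 2.40 in the myeloid types and 3.32 and 2.83 in the lymphocytes.

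Promoter letters are shown for 7 of the genes whose differences are described here, because the 2 motifs bound by the STAT complexes can be read in them. The letters searched were GAAA, any 2 bases and GAAA again for the interferon-stimulated response element, and TTC, any 3 bases and GAA for the gamma-activated site, on both strands, from 250 bases before to 50 after the start of each gene (RefSeq, GRCm38.p6). Matches can overlap one another. Capitals mark the match, and sequences are written 5′ to 3′ on the strand of the gene. The Fcgr1 stretch at chr3:96294050-96294098 (minus strand) holds a gamma-activated site. The others hold the response element, at chr1:173673587-173673636 (plus) for Ifi208, chr1:173599316-173599365 (minus) for Ifi213, chr3:142496749-142496798 (plus) for Gbp5, chr3:142559979-142560034 (plus) for Gbp3, chr11:48871421-48871470 (minus) for Irgm1 and chr9:45079127-45079176 (plus) for Jaml.
Fcgr1: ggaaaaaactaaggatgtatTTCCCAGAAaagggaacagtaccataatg
Ifi208: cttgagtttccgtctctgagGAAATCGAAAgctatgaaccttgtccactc
Ifi213: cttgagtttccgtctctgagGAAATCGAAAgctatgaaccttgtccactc
Gbp5: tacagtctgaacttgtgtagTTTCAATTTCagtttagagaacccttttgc
Gbp3: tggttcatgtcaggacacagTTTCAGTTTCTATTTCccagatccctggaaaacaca
Irgm1: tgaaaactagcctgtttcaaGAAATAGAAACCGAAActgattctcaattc
Jaml: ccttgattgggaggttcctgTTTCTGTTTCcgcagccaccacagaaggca
The stretches of Ifi208 and Ifi213 have the same letter at 50 of 50 positions. Those of Gbp3 and Irgm1 each hold 2 overlapping matches. Of the 108 genes called higher, 88 have a promoter in the table, and 17 of these (19.3%) hold the response element, against 2 of 32 (6.25%) of the genes called lower and 3.99% of all 27025 genes with a promoter. The gamma-activated site was in 13 of the 88 (14.8%) and 5 of the 32 (15.6%), against 9.55% of all. These shares are a description, and a match is not a shown binding site.

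Ifit2, which encodes an RNA-binding antiviral protein, had the highest myeloid mean effect of the genes called, 5.31. Its log2 level was 11.90 and 12.41 on the dendritic cell interferon arrays, 10.43 on the macrophage interferon array and 12.52 and 12.77 on the neutrophil interferon arrays, against a lowest of 4.70, a median of 6.78 and a highest of 7.60 on the 8 myeloid baseline arrays. On lymphocyte arrays it was 10.21 at the lowest, 10.95 at the median and 11.40 at the highest after interferon, against 6.49, 7.89 and 8.60 at baseline. In both lineages the interferon arrays lay above all baseline arrays, and the difference was 2.19 (SE 0.206, adjusted p = 6.54e-09). The antiviral effectors as a list had 2 of 22 measured members called higher, Ifit2 and Trex1, and 2 lower, Oas2 and Oasl2. The shares of all genes were 0.547% and 0.228%, and the median difference of the list was 0.174. In the means of both lineages at least 20 of the 22 rose (21 in the myeloid types and 20 in the lymphocytes).

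Oas2 and Oasl2, of the family of oligoadenylate synthetases that activate RNase L or enhance RNA sensing, rose in both lineages but less in the myeloid types. Oas2 had effects of 2.14 in the myeloid types and 3.15 in the lymphocytes (difference -1.01, SE 0.165, adjusted p = 0.000141), and its level was higher in the myeloid types by 2.40 at baseline and by 1.39 after interferon. Oasl2 had effects of 2.22 in the myeloid types and 3.31 in the lymphocytes (difference -1.08, SE 0.195, adjusted p = 0.000491). The smallest was that of neutrophils, 0.98, where baseline arrays already lay at 11.79 and 12.11. Without neutrophils or without NKT cells neither gene was called.

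Cd69 encodes an early activation antigen that keeps lymphocytes in tissue by binding the egress receptor S1PR1. Log2 levels were 10.24 and 10.77 on the dendritic cell interferon arrays, 7.63 on the macrophage interferon array and 10.98 and 11.17 on the neutrophil interferon arrays, against a lowest of 4.10, a median of 6.17 and a highest of 8.15 on the 8 myeloid baseline arrays. The lymphocyte level was 11.30 at the lowest, 11.77 at the median and 12.01 at the highest after interferon, against 8.63, 10.01 and 10.68 at baseline. Within each type the interferon arrays lay above the baseline arrays, and the myeloid levels stayed lower than the lymphocyte ones, by -3.53 at baseline and -2.0 after interferon. The rise was 10.8-fold in the myeloid types and 3.76-fold in the lymphocytes, and the difference was 1.53 (SE 0.19, adjusted p = 1.55e-06). Atf3, a stress-induced transcription factor gene, had a difference of 1.38 (SE 0.249, adjusted p = 0.000485). Its effects were 2.42 in dendritic cells, 1.57 in macrophages, 1.51 in neutrophils and 1.35 in NKT cells. The macrophage and neutrophil contrasts of Atf3, 1.12 and 1.06, were not called. Nlrc5, the transcriptional activator of MHC class I genes, had a difference of 1.32 (SE 0.224, adjusted p = 0.000246). Nlrc5 has 19 probe sets whose differences ran from 0.0148 to 1.63, and their mean was not called. The dendritic cell and macrophage contrasts of Nlrc5, 0.64 and 1.15, were not called, and the gene lost its call without neutrophils.

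Further genes raised in the myeloid mean belong to no list described here. Ccnj, which encodes cyclin J, had effects of 2.95 in neutrophils, 2.33 in macrophages and 1.25 in dendritic cells, against 0.15 in the lymphocytes (difference 2.02, SE 0.153, adjusted p = 4.98e-11). Bco2, which encodes a carotenoid-cleaving enzyme, had effects between 1.71 and 2.04 in the 3 myeloid types and between -0.11 and 0.31 in the 6 lymphocyte types (difference 1.80, SE 0.183, adjusted p = 2.74e-08). Fbxw17, of the F-box proteins of ubiquitin ligases, had effects between 1.38 and 2.22 in the myeloid types and between -0.07 and 0.44 in the lymphocytes (difference 1.71, SE 0.122, adjusted p = 1.68e-11). Naa25, a subunit gene of an N-terminal acetyltransferase, Scimp, an adaptor of antigen-presenting cells, Fam241a, Cited2, a transcriptional coregulator, and Tmem67, which encodes a membrane protein of cilia, had differences between 1.60 and 1.87. Tmem67 had a lymphocyte mean effect of 0.91, with 1.75 in NKT cells and 1.35 in regulatory T cells, and Naa25 had an effect of 1.12 in gamma-delta T cells. In Cited2 the lymphocyte mean effect was -0.39, while the myeloid types rose by 1.24.

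**Figure D3:**
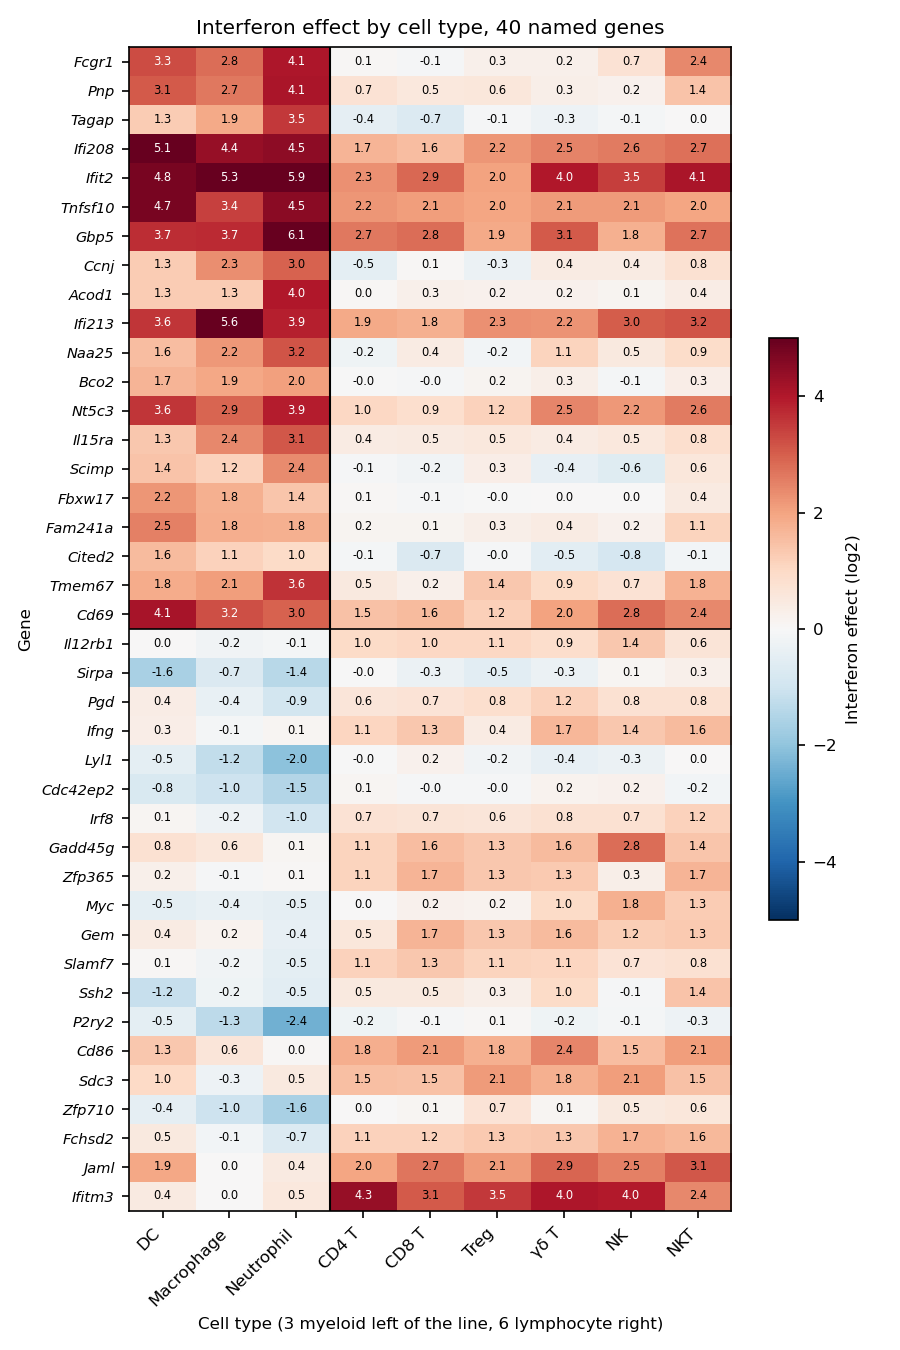
Interferon effect (log2) of 40 genes in each of the 9 cell types. The 20 largest positive differences lie above the line and the 20 largest negative below it. They were chosen among called genes whose myeloid and lymphocyte effects do not overlap. Each also had to keep its sign at an adjusted p below 0.05 (limma) with a preparation term and without macrophages. Red is a positive and blue a negative effect. Ifitm3 has lymphocyte effects from 2.39 to 4.35 and myeloid effects from 0.02 to 0.53.

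The map of effects by cell type shows how even or uneven these genes were among the types. Gbp5, Acod1 and Tagap were highest in neutrophils, Ifi213 in macrophages with 5.64, and Ifi208, Cd69 and Fam241a in dendritic cells with 5.07, 4.13 and 2.51. Some genes were called in the mean and lost the call when 1 type was left out. Ccl2, a chemokine for monocytes, had effects of 3.32 in macrophages, 0.96 in dendritic cells and 0.38 in neutrophils, and lost its call without macrophages, as did Fkbp5 and Sgk1, glucocorticoid-responsive genes, and Socs2, which encodes a feedback inhibitor. Socs2 has 2 probe sets, with differences of 1.35 for the one used and 0.39 for the other, and their mean was not called. Casp12, an inflammatory caspase gene of the mouse, had effects of 2.88 in neutrophils, 0.91 in macrophages and 0.37 in dendritic cells. It lost its call without neutrophils. Casp12 was also dim, with a median log2 level of 3.88 on myeloid baseline arrays and 4.90 on myeloid interferon arrays. Klrk1, which encodes the activating receptor NKG2D, had effects of 2.10 in dendritic cells, 0.60 in neutrophils and 1.77 in macrophages.

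Fcgr4, the other Fc gamma receptor gene called of 5 measured, had a difference of 1.30 (SE 0.376, adjusted p = 0.0493) and lost its call when any 1 of 33 arrays was left out. The log2 level stood at 10.29 and 10.53 on the dendritic cell interferon arrays, 10.33 on the macrophage interferon array and 12.45 and 12.58 on the neutrophil interferon arrays, against a lowest of 7.13, a median of 8.58 and a highest of 11.06 on the 8 myeloid baseline arrays. NKT cells had an Fcgr4 effect of 2.51, above the neutrophil value of 1.59 and the macrophage value of 1.63. The dendritic cell value was 2.89. Among the other lymphocytes, the effect was 1.09 for NK cells, 0.87 for gamma-delta T cells and between -0.14 and 0.15 for the rest. How much the macrophage markers on NKT cell arrays, given for Fcgr1, contribute to the NKT cell value was not tested. Of the schlafen genes, which restrict cell growth and viral translation, Slfn9 and Slfn4 were called higher and 0 lower of 7 measured (limma, and no other member at an adjusted p below 0.05). Among all genes 0.547% were called higher and 0.228% lower. Slfn9 had effects of 3.87 in the myeloid types and 2.58 in the lymphocytes, and Slfn4 of 1.72 and 0.60 in the same order. Slfn9 was not called without neutrophils, nor Slfn4 without macrophages.

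**Figure D4:**
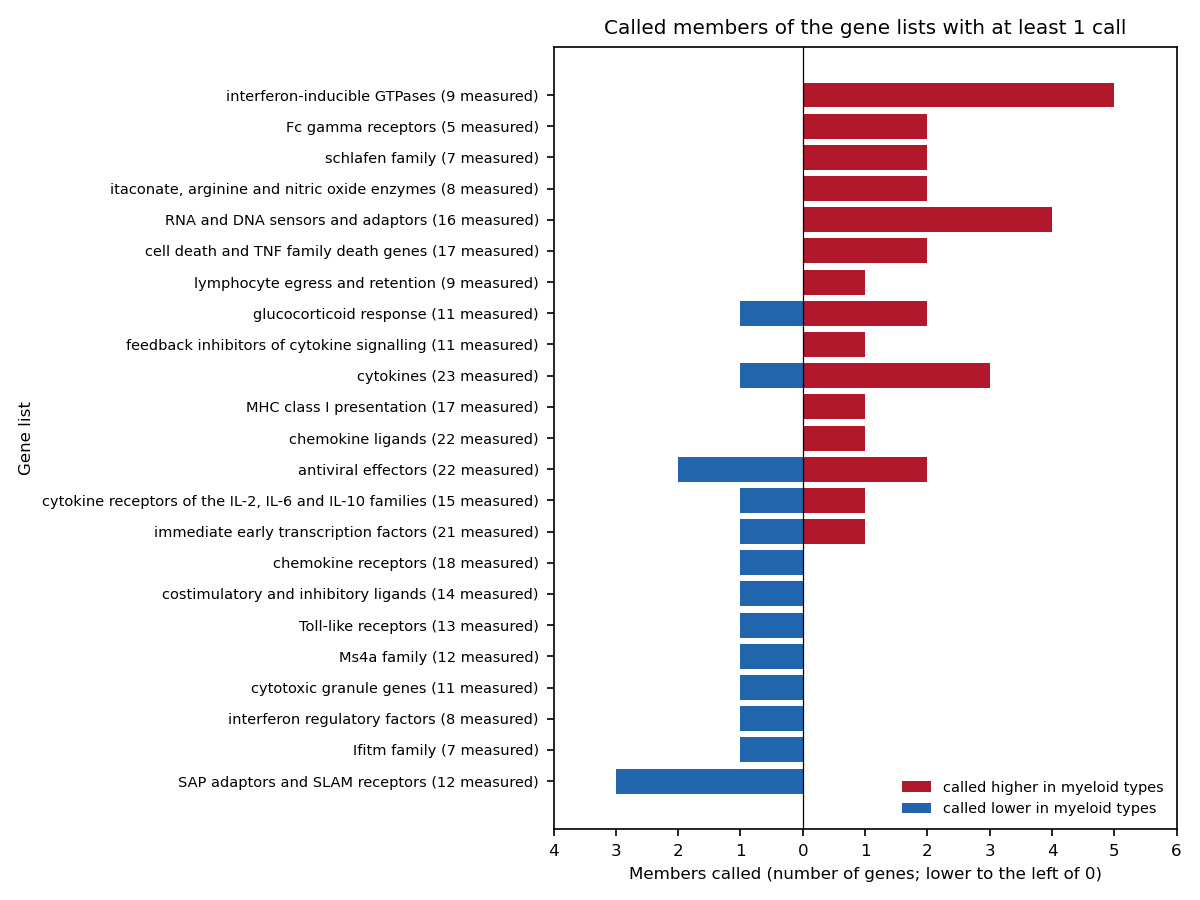
Number of members called higher (right of 0) or lower (left of 0) in the myeloid types for the 23 functional gene lists, marker lists left out, with at least 1 call, with the number of measured genes beside each name. The interferon-inducible GTPases have the most members called higher, 5 of 9, and the SAP adaptors and SLAM receptors the most called lower among these lists, 3 of 12.

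The bars of called members give these counts for the functional lists, of which 31 were described with 7 lists of cell type markers. For each list the shares to set beside them are 0.547% of all genes called higher and 0.228% called lower. The MHC class I presentation list had 1 of 17 called, Nlrc5. The interferon receptors and JAK-STAT genes had 0 of 13 called by limma in either direction, with 1, Stat2, at an adjusted p below 0.05 (0.64, adjusted p = 0.043).

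Ifitm3 had the largest negative difference. It encodes a membrane protein that blocks the entry of viruses from endosomes. Its log2 level was 12.74 and 12.79 on the dendritic cell interferon arrays, 12.78 on the macrophage interferon array and 13.28 and 13.06 on the neutrophil interferon arrays, against a lowest of 12.15, a median of 12.59 and a highest of 12.94 on the 8 myeloid baseline arrays. In the lymphocytes it was 9.47 at the lowest, 11.17 at the median and 12.44 at the highest after interferon, against 5.65, 7.04 and 10.82 at baseline. All 13 myeloid arrays lay at or above 12.15 whatever the treatment, with dendritic cell and neutrophil interferon arrays above their own baseline arrays, and in each lymphocyte type the interferon arrays lay above the baseline arrays. The lymphocyte rise was 11.8-fold, against 1.26-fold in the myeloid types, and the level gap between the lineages was 5.19 at baseline and 1.97 after interferon, with the difference was -3.23 (SE 0.355, adjusted p = 1.35e-07). The highest lymphocyte baseline level, 10.82, was on an NKT cell array. The response of the other 6 measured Ifitm genes differed by -0.54 to 0.23, and none of them was called by limma or had an adjusted p below 0.05.

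Jaml, which encodes an adhesion molecule of migrating leukocytes, was raised in dendritic cells (effect 1.93) and in the lymphocyte mean, and was not called raised in macrophages or neutrophils. Log2 levels were 10.61 and 10.95 on the dendritic cell interferon arrays, 6.0 on the macrophage interferon array and 10.77 and 10.86 on the neutrophil interferon arrays, against a lowest of 5.87, a median of 8.78 and a highest of 10.45 on the 8 myeloid baseline arrays. Lymphocyte arrays had 8.51 at the lowest, 9.53 at the median and 10.86 at the highest after interferon, against 6.19, 6.81 and 8.03 at baseline. Lymphocyte interferon arrays all lay above lymphocyte baseline arrays, macrophages stayed near 6 on every array, and neutrophils were high before and after. The lymphocyte effects lay between 1.99 and 3.11, the macrophage effect was 0.01 and the neutrophil effect 0.44, and the difference was -1.76 (SE 0.14, adjusted p = 1.25e-10).

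Cd86 encodes a costimulatory ligand for CD28 on T cells. The log2 level stood at 11.24 and 11.45 on the dendritic cell interferon arrays, 10.11 on the macrophage interferon array and 7.30 and 7.89 on the neutrophil interferon arrays, against a lowest of 7.29, a median of 9.65 and a highest of 10.21 on the 8 myeloid baseline arrays. Across the lymphocyte types it was 7.24 at the lowest, 8.94 at the median and 10.04 at the highest after interferon, against 5.60, 6.90 and 8.04 at baseline. Dendritic cell and macrophage interferon arrays lay above their baseline arrays, neutrophil arrays overlapped, and in each lymphocyte type the interferon arrays lay above the baseline arrays. The lymphocyte rise was 3.91-fold, and the difference was -1.31 (SE 0.208, adjusted p = 9.72e-05). Among the 14 measured costimulatory and inhibitory ligands it was the 1 gene called, and Cd274, the gene of the inhibitory ligand PD-L1, had effects of 2.64 in the myeloid types and 2.19 in the lymphocytes without a call (adjusted p = 0.45). The part of the macrophage and B cell markers on NKT and gamma-delta T cell arrays in the Cd86 values was not tested.

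Tlr7, which encodes an endosomal receptor for viral RNA, rose 6.15-fold in the lymphocytes and 2.27-fold in the myeloid types. Its log2 level was 9.93 and 10.40 on the dendritic cell interferon arrays, 10.51 on the macrophage interferon array and 9.40 and 9.25 on the neutrophil interferon arrays, against a lowest of 7.32, a median of 9.34 and a highest of 9.95 on the 8 myeloid baseline arrays. On lymphocyte arrays it was 6.55 at the lowest, 9.76 at the median and 10.77 at the highest after interferon, against 4.47, 7.01 and 9.11 at baseline. The level gap between the lineages was 1.92 at baseline and 0.48 after interferon, and the difference was -1.44 (SE 0.232, adjusted p = 0.000115). Effects of Tlr7 were 1.88 in neutrophils, 0.91 in dendritic cells and 0.75 in macrophages, against 1.88 to 3.22 in the lymphocyte types. The neutrophil contrast, -0.74, was not called. Ccrl2, which encodes a receptor that holds the chemoattractant chemerin, rose in both lineages, by 1.54 in the myeloid types and 2.57 in the lymphocytes (difference -1.03, SE 0.187, adjusted p = 0.000571). The neutrophil effect of Ccrl2 was 2.43, and its neutrophil contrast, -0.14, was not called. The call of the mean was lost without macrophages, without dendritic cells, or when any 1 of 6 arrays was left out. Sdc3, a heparan sulphate proteoglycan gene, and Fchsd2, which encodes a protein of endocytic membrane bending, rose in the lymphocytes by 1.74 and 1.39 and had differences of -1.33 (SE 0.216, adjusted p = 0.000135) and -1.48 (SE 0.247, adjusted p = 0.000191). Sdc3 was not called without macrophages.

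Negative differences were also called for single genes known from lymphocyte effector functions. Ifng, which encodes the type II interferon, had log2 levels of 6.25 and 6.56 on the dendritic cell interferon arrays, 6.15 on the macrophage interferon array and 6.58 and 6.47 on the neutrophil interferon arrays, against a lowest of 5.82, a median of 6.27 and a highest of 6.45 on the 8 myeloid baseline arrays. The lymphocyte level was 7.26 at the lowest, 9.08 at the median and 12.28 at the highest after interferon, against 6.38, 7.47 and 10.95 at baseline. Myeloid arrays were low throughout, and lymphocyte effects lay between 0.41 in regulatory T cells and 1.68 in gamma-delta T cells, with the difference was -1.13 (SE 0.171, adjusted p = 4.69e-05). Gzmb, the gene of granzyme B, had lymphocyte effects from 0.92 to 2.80 and the difference was -1.42 (SE 0.344, adjusted p = 0.0122), a call that was lost without macrophages or without neutrophils. Of the 11 measured cytotoxic granule genes it was the 1 called, and Prf1, the perforin gene, differed by 0.31 (adjusted p = 0.5). Il12rb1, which encodes a chain of the receptors for IL-12 and IL-23, had lymphocyte effects from 0.63 to 1.36 and myeloid effects from -0.18 to 0.01 (difference -1.08, SE 0.137, adjusted p = 2.27e-06).

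The SAP adaptors and SLAM receptors, which tune the signals of NK cells and T cells, had 3 of 12 measured members called lower and 0 higher. The shares of all genes were 0.228% and 0.547%, and the median difference of the list was -0.209. Sh2d1b2, an adaptor gene known as EAT-2B, had effects of 5.05 in NK cells and 2.46 in NKT cells, 0.19 to 0.42 in the other 4 lymphocyte types and -0.17 to 0.38 in the myeloid types (difference -1.40, SE 0.25, adjusted p = 0.000432). Sh2d1b1, the EAT-2A gene, had effects of 1.60 in NK cells, 1.70 in NKT cells and -1.34 in dendritic cells (difference -1.08, SE 0.205, adjusted p = 0.00102). With the 4 T cell types alone as the lymphocytes, neither was called. Slamf7, a self-binding receptor gene, rose in the lymphocytes by 1.02 and had a difference of -1.23 (SE 0.223, adjusted p = 0.000519). Its effects were 0.69 in NK cells and 0.77 in NKT cells, and 1.09 to 1.34 in the 4 T cell types.

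Growth and stress genes were among those with negative differences. Myc, a transcription factor gene of cell growth, had log2 levels of 8.07 and 8.23 on the dendritic cell interferon arrays, 9.54 on the macrophage interferon array and 6.19 and 6.18 on the neutrophil interferon arrays, against a lowest of 6.09, a median of 8.73 and a highest of 9.95 on the 8 myeloid baseline arrays. In the lymphocytes it was 9.67 at the lowest, 10.67 at the median and 11.20 at the highest after interferon, against 9.06, 9.68 and 10.95 at baseline. Its effects were 1.79 in NK cells, 1.26 in NKT cells, 0.95 in gamma-delta T cells and at most 0.23 in the other lymphocyte types, against -0.35 to -0.48 in the myeloid types (difference -1.17, SE 0.197, adjusted p = 0.000203). With the 4 T cell types alone as the lymphocytes it was not called. Gadd45g, a stress-responsive gene of MAP kinase signalling, Gem, which encodes a small GTP-binding protein, Zfp365, a zinc finger gene, and Pgd, which encodes an enzyme of the pentose phosphate pathway, had differences between -1.23 and -1.11. Gadd45g rose in the lymphocytes by 1.63, Gem by 1.29 and Zfp365 by 1.24, while Pgd had a lymphocyte effect of 0.80. Without neutrophils Gadd45g, Gem and Pgd lost their calls. Gadd45g also lost its call with the 4 T cell types alone as the lymphocytes.

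A last group fell in the myeloid mean, and Zfp36l2 of this group fell in lymphocytes as well. Zfp36l2, which encodes a protein of mRNA decay, had log2 levels of 10.48 and 9.58 on the dendritic cell interferon arrays, 10.09 on the macrophage interferon array and 8.95 and 8.67 on the neutrophil interferon arrays, against a lowest of 10.91, a median of 11.40 and a highest of 12.40 on the 8 myeloid baseline arrays. Lymphocyte arrays had 9.69 at the lowest, 10.62 at the median and 11.48 at the highest after interferon, against 10.57, 11.48 and 12.03 at baseline. Myeloid interferon arrays all lay below myeloid baseline arrays, with effects of -3.56 in neutrophils, -1.39 in macrophages and -1.16 in dendritic cells. The lymphocyte mean was -0.85 (difference -1.18, SE 0.236, adjusted p = 0.00169). Lymphocyte effects ran from -0.34 in regulatory T cells to -1.07 in NK cells and -1.43 in CD8+ T cells. The macrophage and dendritic cell contrasts of Zfp36l2, -0.54 and -0.30, were not called. P2ry2, which encodes a receptor for extracellular ATP and UTP, had effects of -2.42 in neutrophils, -1.33 in macrophages and -0.49 in dendritic cells (difference -1.28, SE 0.163, adjusted p = 2.47e-06). Both lost their calls without neutrophils. Sirpa, the gene of an inhibitory receptor that reads CD47 on other cells, had effects of -1.62 in dendritic cells, -1.37 in neutrophils and -0.74 in macrophages (difference -1.11, SE 0.241, adjusted p = 0.00439). Ssh2, which encodes a phosphatase of the actin-severing protein cofilin, had effects of -1.16 in dendritic cells, -0.51 in neutrophils and -0.22 in macrophages. It was not called lowered in the myeloid mean, -0.63, and its lymphocyte mean effect was 0.60 (difference -1.23, SE 0.191, adjusted p = 6.81e-05). Lymphocyte effects of Ssh2 ran from -0.07 in NK cells to 1.41 in NKT cells, and its macrophage contrast, -0.82, was not called. Cdc42ep2, an effector gene of the GTPase CDC42, Lyl1, a haematopoietic transcription factor gene, and Zfp710, a zinc finger gene, had myeloid mean effects of -1.09, -1.25 and -1.03, with lymphocyte means from -0.11 to 0.33. Cdc42ep2 and Lyl1 lost their calls without neutrophils, and Sirpa and Ssh2 lost theirs without dendritic cells.

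Irf8, a transcription factor gene of dendritic cell and monocyte development, had a difference of -1.14 (SE 0.249, adjusted p = 0.00451). Log2 levels were 11.97 and 11.55 on the dendritic cell interferon arrays, 9.73 on the macrophage interferon array and 7.0 and 7.23 on the neutrophil interferon arrays, against a lowest of 7.76, a median of 10.17 and a highest of 11.96 on the 8 myeloid baseline arrays. Across the lymphocyte types it was 8.12 at the lowest, 9.55 at the median and 12.33 at the highest after interferon, against 7.68, 8.74 and 11.45 at baseline. The effects were -0.96 in neutrophils, -0.25 in macrophages and 0.11 in dendritic cells, against 0.59 to 1.17 in the lymphocytes, and without neutrophils the gene was not called. Of the 8 measured interferon regulatory factors it was the 1 called. Irf7, which amplifies the interferon response, rose by 3.0 in the myeloid types and 2.32 in the lymphocytes and stayed under the minimum difference (0.68, adjusted p = 0.03), as did Irf1 (0.84, adjusted p = 0.0027) and Irf4 (-0.94, adjusted p = 0.0075).

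Genes of B cells were called lower as well. Cd79a, Cd79b and Ms4a1, which encode parts of the B cell receptor complex and CD20, and Fcmr, the gene of the IgM receptor, had differences of -1.67, -1.41, -1.58 and -1.44. Cd79a had log2 levels of 5.88 and 5.83 on the dendritic cell interferon arrays, 6.61 on the macrophage interferon array and 5.91 and 6.22 on the neutrophil interferon arrays, against a lowest of 6.49, a median of 7.17 and a highest of 9.87 on the 8 myeloid baseline arrays. Neutrophils had the largest falls, with effects of -3.37 for Cd79a, -3.11 for Cd79b, -3.40 for Ms4a1 and -3.07 for Fcmr, against -1.44 to -0.34 in dendritic cells and -0.25 to 0.64 in macrophages. Medians over the 9 markers of B cells were 6.80 and 6.87 on neutrophil interferon arrays and 9.06 and 8.21 on neutrophil baseline arrays, and their summed intensity ran from 1097 to 1142 after interferon and from 3677 to 5993 at baseline. Of these 9 markers, 3 were called lower in the mean and 5 in neutrophils, against 0.228% and 1.48% of all genes. In bulk samples fewer B cells in the sort and less of this RNA per cell cannot be told apart, and all 4 calls were lost without neutrophils. The MHC class II genes, which B cells also express, had 0 of 10 measured members called by limma, 2 of them at an adjusted p below 0.05. Their median difference was -0.732, and 5 members were called lower in neutrophils, against 1.48% of all genes. H2-Aa differed by -1.37 (adjusted p = 0.28). For gamma-delta T cells these medians were 9.53 and 7.84 after interferon and 8.51, 8.07 and 10.69 at baseline.

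**Figure D5:**
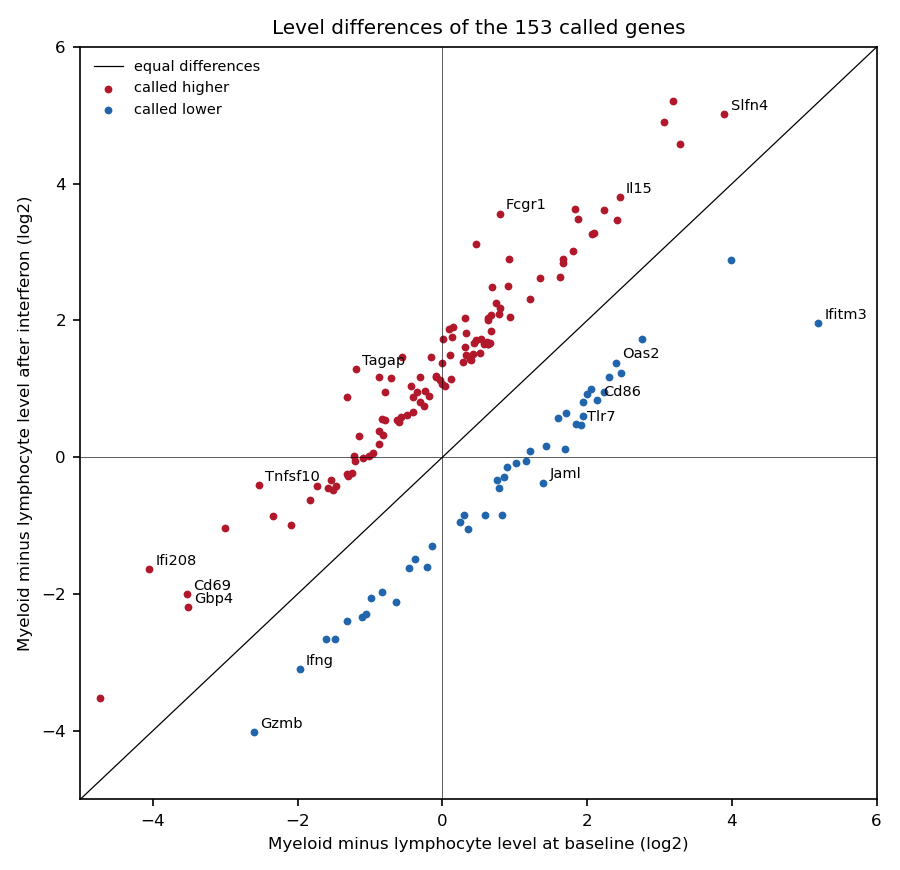
Myeloid minus lymphocyte mean log2 level after interferon (vertical axis) against the same at baseline (horizontal axis) for the 153 called genes, 1 point per gene. Genes called higher lie above the line of equal differences and genes called lower below it. Ifitm3 starts at 5.19 and ends at 1.97, and Ifi208 starts at -4.05 and ends at -1.64.

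Where a called gene stood before interferon differed between the groups, as the plot of level differences shows. Of the 45 genes called lower, 22 had a baseline level at least 1 higher in the myeloid types, 16 were within 1 and 7 were at least 1 lower. Of the 108 called higher, 17 were at least 1 higher, 67 within 1 and 24 at least 1 lower. Among all genes 5.24% were at least 1 higher and 3.74% at least 1 lower in the myeloid types at baseline. The difference subtracts the baseline, so an error in the baseline level moves both quantities in opposite directions, and no test was made of the relation. Ifi208, Cd69, Gbp4 and Tnfsf10 were among those that started lower in the myeloid types, at -4.05, -3.53, -3.52 and -2.54, and Ifitm3, Oas2, Cd86 and Tlr7 among those that started higher, at 5.19, 2.40, 2.14 and 1.92.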

How the data were processed

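Sorted mouse cells were hybridised to 43 arrays. Per the submitters' processing notes, the authors made the deposited intensity values with Affymetrix Power Tools and RMA; the sources used here give neither versions nor a genome build. Intensities ran from 4.69 to 22042 on a linear scale and were converted to log2 here. Of 24922 probe sets, 21425 have 1 gene symbol, 1399 several and 2098 none in the platform annotation. Probe sets with 1 symbol were kept, and for 921 symbols with several the brightest was used, which left 19752 genes.

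A means model over the 18 groups of cell type and treatment was fitted with limma 3.58.1 (R 4.3.3, eBayes), and each difference was a contrast in it, with p-values adjusted over all 19752 genes by the Benjamini-Hochberg method. The fit was tested on simulated data. The text names the 20 largest positive and 20 largest negative differences among called genes whose myeloid and lymphocyte effects do not overlap and which held with a preparation term and without macrophages, the 10 largest called differences each way whatever the overlap, and called members of the 38 gene lists (457 of 505 genes measured); some uncalled list members are given for contrast. Predicted models, clones and small RNAs were counted only. The members and lists were chosen with earlier results of these data known. The number of arrays limits the precision. Alternatives covered the preparation wording, baseline arrays, replicate blocks, dim genes, normalisation, variance model, array weights, probe sets, single arrays and single cell types.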

Additional observations from a re-analysis of the deposited data

Results flagged for a closer look

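The response to interferon differed between myeloid types and lymphocytes, by the limma test of the difference itself, for 108 genes called higher and 45 called lower in the myeloid types. The largest positive log2 differences were those of Fcgr1 (2.77), Pnp (2.64), Tagap (2.48), Ifi208 (2.42), Ifit2 (2.19), Tnfsf10 (2.14), Gbp5 (2.04), Ccnj (2.02), Ifi205 (2.02) and Acod1 (1.98). The largest negative ones were those of Ifitm3 (-3.23), Jaml (-1.76), Cd79a (-1.67), Ms4a1 (-1.58), Fchsd2 (-1.48), Tlr7 (-1.44), Fcmr (-1.44), Gzmb (-1.42), Cd79b (-1.41) and Sh2d1b2 (-1.40).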

How the results depend on the processing

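No named gene reversed its direction under the alternatives run, and 15 of the 76 named genes stayed called under all of those that left out no single array: Bco2, Ccnj, Cited2, Fam241a, Fbxw17, Fcgr1, Fchsd2, Gch1, Ifi208, Ifitm3, Il15ra, Pnp, Scimp, Tagap and Tnfsf10. Counts that moved by over 1.5 times were the following, and the cause was not tested. Of the myeloid minus lymphocyte calls, higher (108) and lower (45), there were 70 and 12 against baseline replicate 3 alone, with the myeloid mean then over dendritic cells and macrophages, 23 and 10 with cell types as units, which leaves fewer samples, and 389 and 232 with adjusted p alone. The lower count was 80 without dendritic cells, 103 without macrophages and 25 without neutrophils. The dendritic cell counts (219 and 78) were 145 and 21 against baseline replicate 3 alone, and 130 were lower with array weights. The macrophage counts (81 and 33) were 38 higher against baseline replicate 3 alone, 206 higher and 114 lower with array weights, and 50 lower with quantile normalisation. The 2 alternatives chosen after seeing the data gave 21 higher in macrophages without the baseline arrays of mixed tissue labels and 65 lower without the 3 arrays farthest from their group. Leaving out single arrays gave 90 to 123 higher and 38 to 59 lower in the mean, with all 4 limits set by the neutrophil interferon arrays. It gave 138 to 233 and 37 to 90 in dendritic cells (lowest without interferon array 2), 63 to 121 and 26 to 48 in macrophages, and 159 to 289 and 135 to 498 in neutrophils (lower calls lowest without interferon array 1 and highest without array 2). Whether replicate numbers pair the samples is not known. Correlations of the 16 pairs ran from -0.30 to 0.35, with 7 over 0.1, and with so few arrays per group they cannot decide it. With the replicate block the counts were 104 and 46 (fixed) and 108 and 47 (random). The fixed block ended the calls of Ccrl2, Cgas and Fcgr4. Dim genes near the background have compressed differences, which limits small effects.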
